A study of Mus musculus with 6 samples.

Results

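The genes described here are the 10 main tubulin genes of mouse brain, taken by symbol from the 24421 genes of the count table: the alpha-tubulin genes Tuba1a, Tuba1b and Tuba4a, and the beta-tubulin genes Tubb2a, Tubb2b, Tubb3, Tubb4a, Tubb4b, Tubb5 and Tubb6. All 10 were found, and all 10 passed the filter on low counts. Their levels were measured in 4 groups of a RiboTag study, in which recombined cells make ribosomes with an HA tag on their Rpl22 protein, and these ribosomes with the mRNA on them are pulled down (IP) out of whole brain. The icKO IP group (2 libraries) came from NG2CreERTM;Ank3F/F;Rpl22HA/+ mice, in which tamoxifen also recombines Ank3, which encodes ankyrin-G, a scaffold under the cell membrane. The control IP group (2 libraries) came from NG2CreERTM;Rpl22HA/+ mice, which have the same Cre driver and tagged ribosome but no floxed Ank3. The icKO input and the control input (1 library each) were RNA of the homogenate before pull-down, 10% of which was set aside. Mice of both genotypes received tamoxifen at 8 weeks of age, at 100 mg/kg per day for 5 days, and their brains were analysed 1 month later. Each library held RNA of 3 pooled mice. IP libraries are titled as biological replicates, but whether different mice went into each pool is not stated. All p-values rest on the spread between the 2 libraries of an IP group, which may be technical, and on variance shared across genes. The inputs have 1 library each. In the fit of IP against input, the spread also holds any difference of the pull-down between genotypes. The title of 1 icKO IP library reads cKO, and the library was taken as icKO, following its genotype label.

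Alpha- and beta-tubulin pair into the dimers from which microtubules are built. The isotypes differ mostly in the tail that follows the globular body, which faces outwards and carries most of the modifications and binding sites for motors and microtubule-associated proteins. In oligodendrocytes microtubules carry cargo, including myelin mRNA, along the processes and through the myelin sheath. Free dimers limit tubulin synthesis. When they accumulate in cultured human cells, the factor Ttc5 binds the first residues of nascent tubulin at the ribosome, and through Scaper and the CCR4-NOT complex the tubulin mRNA on that ribosome is degraded.

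The ends of the coding sequences show where the beta isotypes differ, and their last 60 coding bases, stop codon included, are printed 5′ to 3′ from the GENCODE M21 transcripts of build mm10. Capitals mark bases that differ from Tubb4a in a pairwise alignment, and bases missing from a sequence are not marked.
Tubb4a: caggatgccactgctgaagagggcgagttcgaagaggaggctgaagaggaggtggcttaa
Tubb4b: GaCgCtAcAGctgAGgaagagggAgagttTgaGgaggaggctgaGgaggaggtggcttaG
Tubb5: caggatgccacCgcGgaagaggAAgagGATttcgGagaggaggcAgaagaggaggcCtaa
Tubb2a: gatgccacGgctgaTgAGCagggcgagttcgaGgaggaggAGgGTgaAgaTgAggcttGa
Tubb2b: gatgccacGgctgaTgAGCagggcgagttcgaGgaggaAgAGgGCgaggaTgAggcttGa
Tubb3: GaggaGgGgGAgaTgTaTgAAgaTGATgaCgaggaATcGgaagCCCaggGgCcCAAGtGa
With missing bases counted too, the tail of Tubb3 differed most from that of Tubb4a, at 32 positions, and that of Tubb5 differed at 13. Tubb4b also differed at 13, but it was aligned without a gap. Its first codons were thereby set a codon out of register with the similar codons of Tubb4a. Its capitals there and its count depend on that alignment and cannot be ranked with the others. The first 4 codons, which encode the residues read by Ttc5, were ATGCGGGAAATC in Tubb4a and ATGCGCGAGATC in Tubb2a. No sequence of Tubb6 is shown. In mm10, Tubb4a lies at chr17:57080066-57087782, with 4 exons on the minus strand, and Tubb2a and Tubb2b are both on chromosome 13.

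The closeness of the isotypes limits what a read count can tell apart. Coding sequences were 80.2% to 96.5% identical between beta genes, with Tubb2a and Tubb2b the closest pair, and 84.8% to 98.3% between alpha genes, with Tuba1a and Tuba1b the closest. Of all 75-base windows of the transcript, 68.2% in Tuba1a, 71.9% in Tuba1b, 43.2% in Tubb2a, 32.2% in Tubb2b and 37.8% in Tubb4b occurred also in another annotated gene. The partners were mainly Tuba1c for the first pair, each other for Tubb2a and Tubb2b, and the pseudogenes Tubb4b-ps1 and Tubb4b-ps2 for Tubb4b. Tubb4a, Tubb3, Tubb5, Tuba4a and Tubb6 shared 0 windows. How the authors counted reads that match several genes is not given in the sources used here. The levels of Tuba1a, Tuba1b, Tubb2a, Tubb2b and Tubb4b are therefore uncertain. Tuba4a also overlaps Stk16 on the opposite strand, Tubb4b overlaps Fam166a on the opposite strand, Tubb3 overlaps Gm20388 on its own strand, and Tuba1a and Tuba1b overlap Gm49450 on theirs.

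Library totals ran from 18968806 to 23930812 counts. Ank3 itself had 1163 and 1167 CPM in icKO IPs against 1389 and 1359 CPM in control IPs, and fell by 0.23 on the log2 scale (SE 0.02; adjusted p = 1.31e-10, edgeR). It had 347 CPM in icKO input and 381 CPM in control input. These counts cover the whole gene, and which exons are floxed is not given in the labels. The cells are labelled oligodendrocytes, and of 30 markers of mature oligodendrocytes 27 were higher in IP than in input and 2 lower. All 20 markers of oligodendrocyte precursors and all 14 of pericytes and smooth muscle were also higher in IP than in input, and 19 of 20 neuron markers were lower. Over all genes 34.2% were higher in IP and 34.2% lower. Cspg4, the gene of the NG2 proteoglycan whose promoter drives the Cre, had 934 and 972 CPM in icKO IPs, 894 and 907 CPM in control IPs, 22.8 CPM in icKO input and 21.8 CPM in control input. The pull-down thus held RNA with markers of all 3 of these cell types. In such bulk samples fewer cells of a type and less RNA per cell cannot be told apart.

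Tubb4a, the beta-tubulin of myelinating oligodendrocytes, in which human mutations cause a hypomyelinating leukodystrophy, was the most abundant of the 10 in every library. Its level was 1742 and 1767 CPM (counts scaled to library size, with TMM factors) in icKO IPs, 2552 and 2592 CPM in control IPs, 917 CPM in icKO input and 835 CPM in control input. Both icKO IPs lay below both control IPs, and all 4 IPs lay above both inputs. Tuba1a, the main alpha-tubulin of developing brain and mutated in human cortical malformations, had 609 and 616 CPM in icKO IPs, 792 and 780 CPM in control IPs, 482 CPM in icKO input and 463 CPM in control input. The order of the groups was that of Tubb4a. Tubb2b, a beta-tubulin of developing brain, had 167 and 181 CPM in icKO IPs, 233 and 223 CPM in control IPs, 79.2 CPM in icKO input and 81.7 CPM in control input. As for Tubb4a and Tuba1a, its 4 IP libraries all lay above both inputs.

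The other isotypes were lower in the IPs than in the inputs, except Tubb6. Tubb5, a beta-tubulin of most tissues, had 246 and 249 CPM in icKO IPs, 294 and 287 CPM in control IPs, 452 CPM in icKO input and 435 CPM in control input. Tubb4b, also widely expressed and a component of cilia, had 122 and 126 CPM in icKO IPs, 137 and 140 CPM in control IPs, 271 CPM in icKO input and 246 CPM in control input. Tubb2a, a beta-tubulin of neurons among other cells, had 111 and 107 CPM in icKO IPs, 133 and 131 CPM in control IPs, 350 CPM in icKO input and 307 CPM in control input. For these 3 genes, and also for Tubb3 and Tuba4a, the icKO IPs were lowest and the icKO input, a single library, was highest. Tubb3, the isotype used as a marker of neurons, had 67.7 and 72.2 CPM in icKO IPs, 75.1 and 85.2 CPM in control IPs, 301 CPM in icKO input and 262 CPM in control input. Tuba4a, an alpha-tubulin of mature neurons, had 64.4 and 62.9 CPM in icKO IPs, 66.1 and 69.3 CPM in control IPs, 429 CPM in icKO input and 382 CPM in control input. Its icKO IP mean was 94.0% of the control IP mean, the highest such ratio of the 10 genes. Tuba1b, an alpha-tubulin of most tissues, had 53.1 and 55.2 CPM in icKO IPs, 72.7 and 64.5 CPM in control IPs, 141 CPM in icKO input and 152 CPM in control input. Tubb6 had few counts: 24 and 21 in icKO IPs, 39 and 33 in control IPs, 17 in the icKO input and 22 in the control input.

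**Figure D1:**
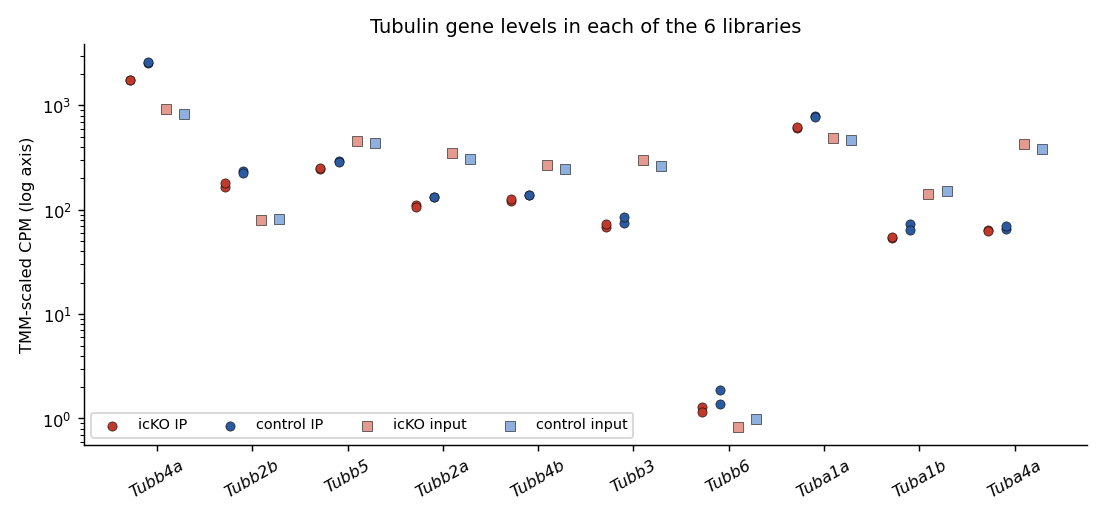
Level of each tubulin gene in each of the 6 libraries, in TMM-scaled CPM on a log axis; circles are IP libraries, squares are inputs, red is icKO and blue is control. Tubb4a stands highest in every library, at 1742 to 2592 CPM in the IPs. For each of the 10 genes both icKO IPs lie below both control IPs, as for 36.9% of all genes tested.

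To compare isotypes with each other, CPM were divided by annotated exon length. On this scale Tubb4a had 787.6 ± 7.87 CPM per kb in icKO IPs and 1154 ± 12.5 CPM per kb in control IPs (SD, n = 2 each). Tuba1a came next, with 339.5 ± 2.72 CPM per kb in icKO IPs and 435.8 ± 4.63 CPM per kb in control IPs. The order then ran through Tubb2b, Tubb5, Tubb2a, Tubb4b, Tubb3, Tuba1b and Tuba4a to Tubb6 in both IP groups. Ranges of neighbours overlapped for Tubb2b and Tubb5 in icKO IPs, at 75.9 ± 4.46 and 74.5 ± 0.584 CPM per kb, and for no other pair of neighbours in either IP group. In both inputs the order per length was Tubb4a, Tuba1a, Tubb2a, Tubb3, Tubb5, Tubb4b, Tuba4a, Tuba1b, Tubb2b and Tubb6, with no replicate check. Tubb2b was at rank 3 of 10 in the IPs and rank 9 in the inputs. The order depends on the length used: Tuba4a, with 3701 exon bases the longest of the 10, was at rank 7 in the inputs on this scale and at rank 4 by CPM.

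Tubb4a supplied most of the beta-tubulin mRNA of the pull-down. Its share of the summed beta-tubulin level per length was 71.4 ± 0.219% in icKO IPs and 75.3 ± 0.220% in control IPs (SD, n = 2 each), 37.7% in icKO input and 37.8% in control input. The share of Tubb4a in icKO minus that in control was -3.88 percentage points in the IPs and -0.13 points in the inputs. With Tubb6 and its few counts left aside, each of the other beta genes had a higher mean share in icKO IPs: Tubb5 by 1.06 points, Tubb4b by 1.05, Tubb2a by 0.79, Tubb3 by 0.60 and Tubb2b by 0.39. Shares are parts of one sum, so a lower share of Tubb4a raises those of the others together. The levels of these other genes were themselves lower in icKO IPs than in control IPs. For Tubb2b the libraries overlapped, with 6.66% and 7.10% in icKO IPs against 6.67% and 6.31% in control IPs. Within alpha-tubulin, Tuba1a held 88.1 ± 0.0385% in icKO IPs and 88.8 ± 0.338% in control IPs, 58.3% in icKO input and 58.2% in control input. Tuba4a held 4.46 ± 0.108% in icKO IPs and 3.73 ± 0.181% in control IPs, 25.3% in icKO input and 23.4% in control input. These shares were not tested. Intervals for counting error only were computed on shares of plain counts, not on these shares per length. The largest half-width of those 95% Wilson intervals was 0.664 percentage points. The summed beta-tubulin level was 2.85 and 2.87 times the alpha-tubulin level in icKO IPs, 3.08 and 3.17 times in control IPs, 2.38 times in the icKO input and 2.25 times in the control input. The 10 genes together took 0.304% and 0.309% of counts in icKO IPs, 0.440% and 0.442% in control IPs, 0.354% in icKO input and 0.330% in control input.

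**Figure D2:**
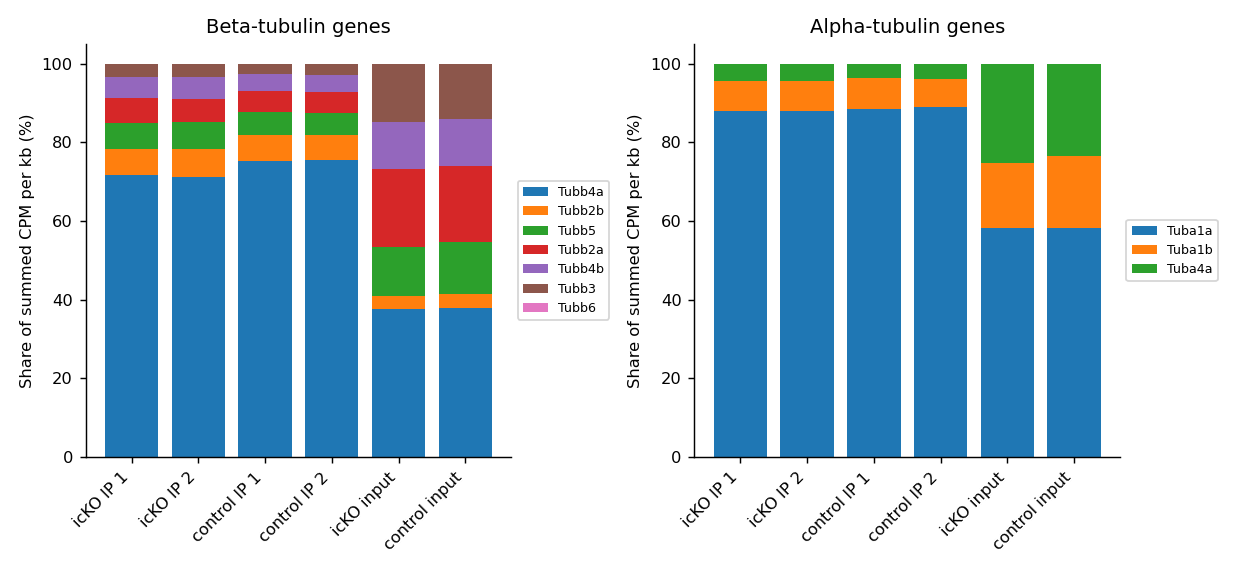
Share of each isotype in the summed level per kilobase of the beta-tubulin genes (left) and of the alpha-tubulin genes (right), in percent, as stacked bars for each of the 6 libraries. Tubb4a makes up 71.4% of beta-tubulin in icKO IPs, 75.3% in control IPs and 37.7% to 37.8% in the inputs, and Tuba1a 88.1% to 88.8% of alpha-tubulin in the IPs and 58.2% to 58.3% in the inputs.

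Against the inputs, IP libraries had more mRNA of Tubb2b, Tubb4a and Tuba1a and less of the remaining isotypes, with Tubb6 and its few counts left aside. In a fit of the 6 libraries that allowed for genotype, Tubb2b rose by 1.31 on the log2 scale (adjusted p = 8.62e-07), Tubb4a by 1.27 and Tuba1a by 0.55. Tuba4a fell by 2.63, Tubb3 by 1.91, Tubb2a by 1.46, Tuba1b by 1.26, Tubb4b by 0.98 and Tubb5 by 0.73. Thus 3 of 10 genes were higher and 6 lower at an adjusted p under 0.05 in edgeR's quasi-likelihood test, where 68.4% of the 15936 genes tested were called, 34.2% higher and 34.2% lower. Tubb6 had a log2 difference of 0.63 (adjusted p = 0.125). The median of the 10 genes was -0.85, against 0.016 over all genes. When the libraries were scaled to the summed markers of mature oligodendrocytes, which themselves were higher in IP, the median of all genes shifted to -2.45, and Tubb2b, Tubb4a and Tuba1a turned to -1.15, -1.18 and -1.91.

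Among cell-type markers, the median log2 difference between IP and input was 3.63 over the 20 oligodendrocyte precursor markers, 3.39 over the 14 of pericytes and smooth muscle, 2.21 over the 30 of mature oligodendrocytes, -1.99 over the 20 of neurons and -2.36 over the 12 of microglia. Tubb4a and Tubb2b lay between the medians of mature oligodendrocytes and neurons, and Tuba4a, at -2.63, below that of microglia. The pattern of Tuba4a over the 6 libraries, measured as the Euclidean distance between centred log2 CPM values among 10086 genes of at least 10 mean CPM, lay nearest to those of Atp1b1, a sodium pump subunit (distance 0.09), Snap25, a protein of synaptic vesicle fusion (0.14), and Syp, a synaptic vesicle protein (0.16). Nearest to Tubb4a were Scd2, a fatty acid desaturase (distance 0.05), Abca2, a lipid transporter (0.07), and Trf, the iron carrier transferrin (0.07). The nearest isotype to Tubb4a was Tubb2b, at rank 58 among all genes. Nearest to Tubb3 were Paqr7, a progestin receptor (distance 0.16), Lxn, a carboxypeptidase inhibitor (0.18), and Ncdn, neurochondrin (0.18). Nearest to Tubb5 were Alg2, a mannosyltransferase (0.05), Mrpl48, a mitochondrial ribosomal protein (0.06), and Ank, a pyrophosphate transporter (0.07). These distances describe 6 libraries of 4 groups, and no test is attached to them.

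**Figure D3:**
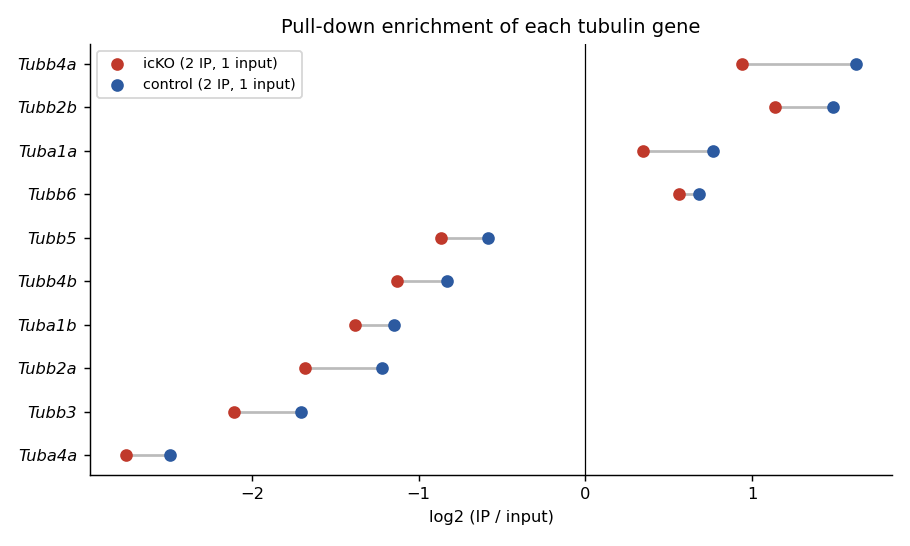
Log2 ratio of IP to input for each tubulin gene, in icKO (red) and control (blue) mice, each point from 2 IP libraries and 1 input. Tubb4a, Tubb2b, Tuba1a and Tubb6 lie above 0 and the other genes below it, and the icKO point lies to the left of the control point for every gene, with Tubb4a farthest apart at 0.94 in icKO and 1.62 in control mice.

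Between genotypes, 8 of the 10 genes fell in icKO IPs and none rose, where edgeR's quasi-likelihood test over the 4 IP libraries called 47.2% of all 15069 genes, 25.2% lower and 22.1% higher. The median log2 change of the 10 genes was -0.30, against 0.0033 over all genes. Each gene had both icKO IPs below both control IPs, as had 36.9% of all genes tested. Tubb4a fell by 0.55 (SE 0.02; adjusted p = 5.79e-21), which left 68.2% of its control level. Tubb2b fell by 0.39 (SE 0.04; adjusted p = 2.73e-10), Tuba1a by 0.36 (SE 0.02; adjusted p = 7.45e-14) and Tuba1b by 0.34 (SE 0.06; adjusted p = 3.22e-05). Tubb2a fell by 0.27 (SE 0.04), Tubb5 by 0.22 (SE 0.03), Tubb3 by 0.20 (SE 0.06; adjusted p = 0.00605) and Tubb4b by 0.16 (SE 0.04; adjusted p = 0.0016). Tuba4a had a log2 difference of -0.09 (SE 0.06; adjusted p = 0.213) and Tubb6 of -0.38 (SE 0.37; adjusted p = 0.42). With 1 library left out these ran from -0.12 to -0.05 for Tuba4a and from -0.60 to -0.15 for Tubb6. Without the second control IP library Tubb3 had a log2 difference of -0.10 and an adjusted p of 0.264. Pairwise differences between the changes of the isotypes were not tested.

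Markers of oligodendrocytes and of other cell types also differed between the IP groups. The summed level of the 30 mature oligodendrocyte markers was 19232 and 19143 CPM in icKO IPs, 30619 and 30822 CPM in control IPs, 4397 CPM in icKO input and 4429 CPM in control input. Of these markers 26 fell and 2 rose between the IP groups, beside 25.2% lower and 22.1% higher over all genes. Their median was -0.71, and none was at 0 in any library. Mbp, a main myelin protein, fell by 0.80, and Cnp, an enzyme of myelinating cells that binds tubulin, by 0.40. Relative to the summed markers every isotype was higher in icKO IPs: all genes then shifted by 0.68, Tubb4a had a log2 difference of 0.13 and Tuba4a of 0.59, and 9 of the 10 genes were called higher. Under this scaling 20 of 20 neuron markers and 11 of 12 astrocyte markers were also called higher, and 0 of 14 pericyte and smooth muscle markers. The share of all genes called higher under it is not reported here. The 14 pericyte and smooth muscle markers summed to 1239 and 1255 CPM in icKO IPs and 2290 and 2313 CPM in control IPs, and all 14 fell. The 20 neuron markers summed to 4877 and 4789 CPM in icKO IPs, 4316 and 4334 CPM in control IPs, 16111 CPM in icKO input and 15623 CPM in control input. Of these, 9 rose and 5 fell between the IP groups, with a median of 0.06. Scaled by library totals, which moved the median of all genes to -0.083, 8 rose and 8 fell. The 20 oligodendrocyte precursor markers summed to 11002 and 11084 CPM in icKO IPs and 12671 and 12804 CPM in control IPs, with 16 lower, 1 higher and a median of -0.23. The part of mature oligodendrocytes, precursors, pericytes and neurons in the tubulin differences was not tested.

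Short transcripts were lower in icKO IPs in general. The median log2 change was -0.16 over the 20% of genes with the shortest annotated exons, up to 2479 bases, and 0.14 over the 20% with the longest, from 7638 bases. Among the 4387 genes of 1610 to 3701 bases, the length range of the 10 tubulin genes, the median was -0.11, with 30.9% called lower and 9.69% called higher. When the length trend was removed, an alternative chosen after seeing the data, 1428 of the 7119 genes called in either direction lost their call. The share of all genes called lower under this setting is not reported here. Of the 10 tubulin genes, 5 were still called lower. These were Tubb4a at -0.40, Tubb2b at -0.24, Tuba1a at -0.17, Tuba1b at -0.15 and Tubb5 at -0.15. Tubb2a then had a log2 difference of -0.07 (adjusted p = 0.194), Tubb3 of -0.01 (adjusted p = 0.876) and Tubb4b of 0.0041 (adjusted p = 0.945).

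**Figure D4:**
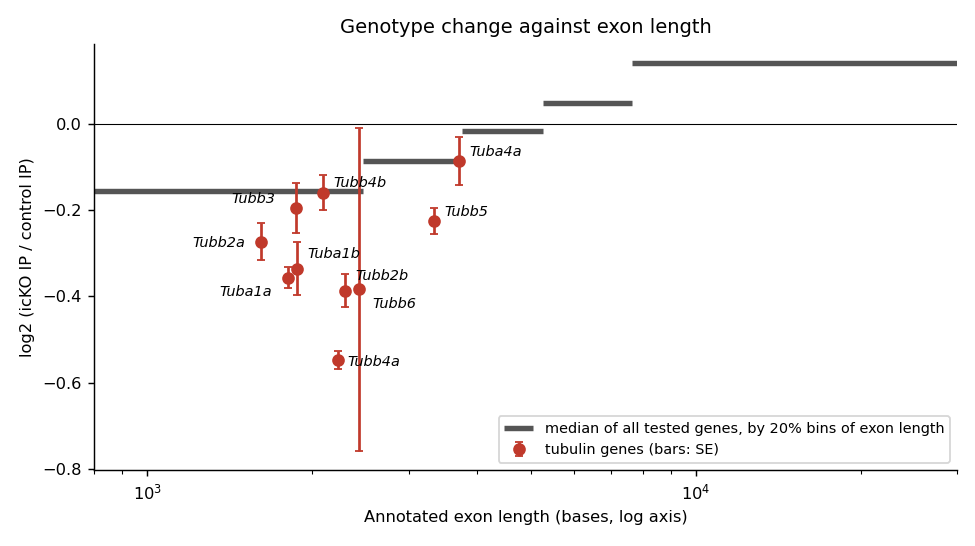
Log2 change between icKO and control IP libraries (y axis) against annotated exon length in bases (x axis, log scale), for the 10 tubulin genes (red, with SE) and as the median of all tested genes in bins of 20% of the genes by exon length (grey lines, drawn to the edge of the axis for the shortest and longest). The grey lines run from -0.16 to 0.14, Tubb4a lies lowest at -0.55, and Tuba4a and Tubb4b lie close to the median of genes of their length.

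In the inputs 7 of the 10 genes had a higher level in icKO than in control. With 1 library each they have no replicate check, and the intervals given are exact 95% intervals for counting error only. Tubb4a had a log2 ratio of icKO to control input of 0.13 (interval 0.10 to 0.16), from 18859 counts in the icKO input and 18392 counts in the control input. Ratios were 0.20 for Tubb3, 0.19 for Tubb2a, 0.17 for Tuba4a, 0.14 for Tubb4b, and 0.06 for both Tuba1a and Tubb5. Tuba1b had a ratio of -0.10 (interval -0.17 to -0.03), Tubb2b of -0.04 (interval -0.14 to 0.05) and Tubb6 of -0.25 (interval -1.28 to 0.71). Over all genes tested the median ratio was 0.01 and the middle 90% of genes ran from -0.58 to 0.61.

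The genotype change in IP was tested against that in input in a fit of all 4 groups, in which the spread of the inputs was taken from the IP pairs. Counts of the icKO and control inputs differed by a chi-square over its degrees of freedom of 5.45, against 2.11 within the icKO IP pair and 2.19 within the control IP pair, and the inputs differ in genotype as well. The change was lower in IP for 8 of 10 genes and higher for none, where 23.6% of all genes were called, 13.9% lower and 9.67% higher. Tubb4a had the largest difference of the 10, -0.69 (SE 0.02), followed by Tubb2a at -0.46, Tuba1a at -0.42, Tubb3 at -0.40, Tubb2b at -0.35, Tubb4b at -0.30, Tubb5 at -0.29 and Tuba4a at -0.26. Tuba1b had a difference of -0.24 (adjusted p = 0.0519) and Tubb6 of -0.12 (adjusted p = 0.937). The log2 ratio of IP to input was 0.94 in icKO and 1.62 in control mice for Tubb4a, 0.34 and 0.76 for Tuba1a, and 1.14 and 1.48 for Tubb2b. It was -2.11 in icKO and -1.71 in control mice for Tubb3, -1.68 and -1.22 for Tubb2a, and -2.75 and -2.49 for Tuba4a. Scaled to the mature oligodendrocyte markers, Tubb4a had a difference of -0.02 (adjusted p = 0.716) and the other 9 genes were positive, beside a median of 0.65 over all genes.

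**Figure D5:**
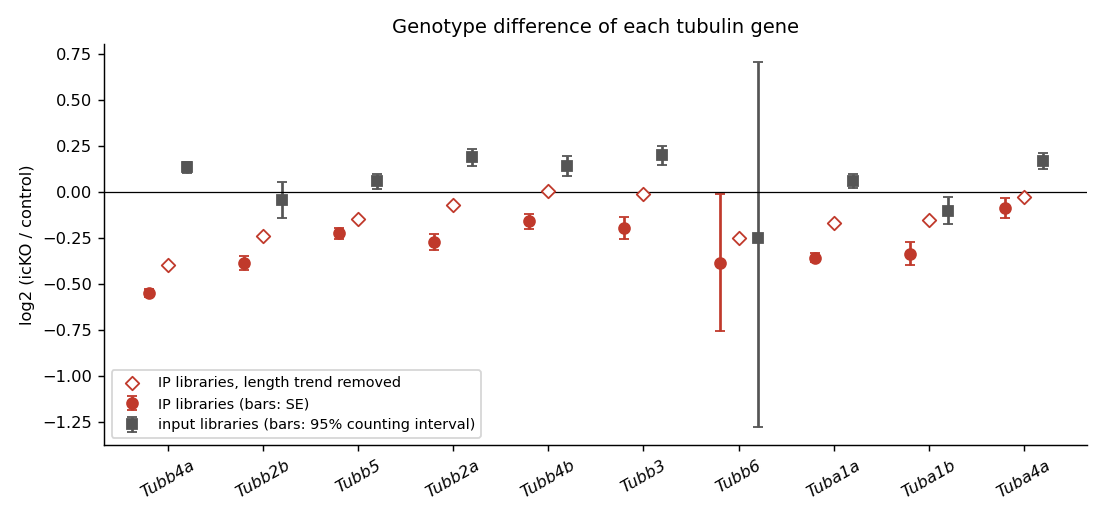
Log2 ratio of icKO to control for each tubulin gene: in the IP libraries (red circles, bars are SE), in the IP libraries with the length trend removed (open diamonds) and in the inputs (grey squares, bars are 95% counting intervals). Tubb4a lies at -0.55 in IP, -0.40 with the trend removed and 0.13 in input, and the red circles of all 10 genes lie below 0.

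Of the remaining tubulin genes the gamma-tubulins Tubg1 and Tubg2, which nucleate microtubules, had the highest levels. Tubg1 had 26.5 and 28.5 CPM in icKO IPs, 35.0 and 34.5 CPM in control IPs, 51.2 CPM in icKO input and 48.7 CPM in control input. Tubg2 had 16.8 and 17.3 CPM in icKO IPs, 16.3 and 18.03 CPM in control IPs, 58.4 CPM in icKO input and 62.3 CPM in control input. Tuba1c, an alpha-tubulin whose coding sequence is nearly that of Tuba1b, had 4.88 and 3.65 CPM in icKO IPs, 4.82 and 5.62 CPM in control IPs, 5.40 CPM in icKO input and 7.45 CPM in control input. Its genotype difference in IP was -0.29 on the log2 scale (SE 0.20; adjusted p = 0.24). Tubb1, the beta-tubulin of platelets, had at most 0.143 CPM in any IP library, 0.292 CPM in icKO input and 1.54 CPM in control input. Tubg1 fell by 0.33 between the IP groups (SE 0.08; adjusted p = 0.000711), and was the only one called of the 6 other tubulin genes tested. With the length trend removed its adjusted p was 0.0553. No count of Tuba3a or Tubal3 was found in any library. This allows up to 0.124 to 0.166 CPM, depending on the library, provided that reads of these genes were counted. Sequence that they share with other genes was not measured, and how multiply matching reads were counted is not given.

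Genes that fold tubulin are the prefoldin and CCT chaperonin subunits and the cofactors that assemble the dimer. Of 22 tested, 12 fell and 1 rose between the IP groups, with a median log2 change of -0.18, beside 25.2% lower and 22.1% higher over all genes and 30.9% lower and 9.69% higher over genes in the length range of the isotypes. Arl2, a GTPase that works with the cofactors, fell by 0.63 (SE 0.10) and Tbcb, a cofactor for alpha-tubulin, by 0.31 (SE 0.07). Tbce, another alpha-tubulin cofactor, rose by 0.48 (SE 0.07; adjusted p = 1.29e-06), with 47.6 and 44.6 CPM in icKO IPs against 34.4 and 32.0 CPM in control IPs. With the length trend removed, 5 of the 22 were called lower, among them Arl2, and Tbcb had a log2 difference of -0.09 (adjusted p = 0.332). Against input, 13 of the 22 were lower in IP and 2 higher, beside 34.2% in each direction over all genes.

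Of the 11 genes of tubulin autoregulation, 4 rose and 1 fell between the IP groups, beside 22.1% higher and 25.2% lower over all genes. Ttc5, which reads the nascent chain, had 32.3 and 32.5 CPM in icKO IPs, 29.2 and 31.0 CPM in control IPs, 31.4 CPM in icKO input and 31.3 CPM in control input. Its genotype difference in IP was 0.11 (SE 0.08; adjusted p = 0.262). Cnot10, a subunit of the CCR4-NOT deadenylase, rose by 0.29 (SE 0.06; adjusted p = 0.000125), and Cnot8, one of its nucleases, fell by 0.18 (SE 0.07; adjusted p = 0.0343). Scaled by library totals alone, 2 of the 11 rose and 2 fell, and with the length trend removed 1 rose and 1 fell. The shares of all genes called higher or lower under these settings are not reported here.

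Of 22 enzymes that modify tubulin 7 rose and 6 fell in icKO IPs, with a median of -0.01, which is near the 22.1% higher and 25.2% lower over all genes. Those acting on the lysine of alpha-tubulin inside the microtubule included the acetyltransferase Atat1, which fell by 0.24 (SE 0.06), and 2 deacetylases. Sirt2, abundant in oligodendrocytes, fell by 0.43 (SE 0.02; adjusted p = 4.55e-16), with 680 and 695 CPM in icKO IPs, 920 and 932 CPM in control IPs, 94.3 CPM in icKO input and 100.4 CPM in control input. Hdac6 rose by 0.26 (SE 0.07; adjusted p = 0.00433). Among enzymes that add or remove glutamates on tubulin tails, the glutamylase Ttll7 fell by 0.45 (SE 0.03), the polyglutamylase Ttll11 rose by 0.57 (SE 0.10), and the deglutamylase Agbl4 rose by 0.57 (SE 0.15). Of the enzymes that remove and put back the last tyrosine of alpha-tubulin, the vasohibin Vash1 fell by 0.25 (SE 0.05; adjusted p = 9.53e-05), its partner Svbp had a log2 difference of -0.22 (adjusted p = 0.415), and Ttl of 0.05 (adjusted p = 0.525). Scaled by library totals alone Hdac6 had an adjusted p of 0.0534.

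Of 40 genes of microtubule-associated proteins, 17 fell and 12 rose, beside 25.2% lower and 22.1% higher over all genes. Stmn1, a stathmin that binds free dimers, fell by 0.77 (SE 0.04; adjusted p = 6.96e-18), with 135 and 130.1 CPM in icKO IPs, 223 and 229.6 CPM in control IPs, 437 CPM in icKO input and 476 CPM in control input. Its relative Stmn4 fell by 0.57 (SE 0.04), Map6d1, a stabiliser of microtubules, by 0.63 (SE 0.05), and Tppp, an oligodendrocyte protein that nucleates microtubules on Golgi outposts, by 0.44 (SE 0.03). Mapt, the tau gene, fell by 0.24 (SE 0.03). Clip1, a linker that tracks growing microtubule ends, rose by 1.18 (SE 0.03; adjusted p = 4.48e-26), with 763 and 779 CPM in icKO IPs, 353 and 328 CPM in control IPs, 151 CPM in icKO input and 154 CPM in control input. Its homolog Clip2 rose by 0.49 (SE 0.03). Map2, Map1b and Map1a, dendritic and axonal proteins in neurons with long mRNAs, rose by 0.24, 0.14 and 0.05, but with the length trend removed Map1b and Map1a were called lower, at -0.07 and -0.11, and Map2 had a difference of 0.02 (adjusted p = 0.581). With that trend removed 23 of the 40 fell and 4 rose. Scaled by library totals alone, Map1a also turned to -0.04 (adjusted p = 0.107). Dcx, a neuroblast protein, had a difference of -0.02 (adjusted p = 0.792).

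Of 11 severing and depolymerising enzymes 1 rose and 3 fell, and of 19 genes of gamma-tubulin nucleation 6 rose and 3 fell, beside 22.1% higher and 25.2% lower over all genes. Kif2c, a depolymerising kinesin of dividing cells, rose by 1.11 (SE 0.31; adjusted p = 0.00344). Its levels were low, at 2.95 and 3.09 CPM in icKO IPs and 1.77 and 1.07 CPM in control IPs. Of 15 cell cycle markers 8 rose and 1 fell, with a median log2 change of 0.47, and their part in the change of Kif2c was not tested. The severing enzyme Spast fell by 0.27 (SE 0.05) and Fign, of the same class, by 0.28 (SE 0.11). Tubgcp3 and Tubgcp6, both parts of the gamma-tubulin ring, rose by 0.41 (SE 0.06) and 0.38 (SE 0.06). The augmin subunit Haus1, with 3.32 and 3.04 CPM in icKO IPs and 4.39 and 5.04 CPM in control IPs, fell by 0.57 (SE 0.21). Haus2, also of augmin, fell by 0.54 (SE 0.11). Scaled to the mature oligodendrocyte markers all of these values are raised by about 0.68, so that every fall given here for a microtubule gene other than Stmn1 turns positive.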

How the data were processed

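RNA was sequenced from 6 mouse brain libraries, per the labels' protocols with a stranded low-input total RNA kit. The authors deposited raw read counts per gene symbol, with no normalization. Per the submitters' processing notes, Trimmomatic 0.39 and STAR 2.7.10b were used, with build mm10. The counter, its strand setting and its treatment of duplicates and multiply matching reads were not given in the sources used here. Of 24421 genes, 10 had no value in the inputs and were left out.

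Groups came from the sample titles. Genes were filtered with filterByExpr, over the IP groups for the genotype comparison and over the 4 groups otherwise, and then TMM-scaled. They went into edgeR's quasi-likelihood test (edgeR 4.0.16, R 4.3.3, two-sided), with Benjamini-Hochberg adjustment over all genes tested and a threshold of 0.05. The genotypes were compared over the 4 IP libraries (common biological coefficient of variation 3.01%, 2 residual degrees of freedom), IP and input over all 6 with genotype as a term, and the genotype change between IP and input over 4 groups. The 2 inputs had no test. CPM of single libraries carry TMM factors of all 6. Counts of both IP pairs differed by more than sampling noise, with chi-square over its degrees of freedom at 2.11 in the icKO pair and 2.19 in the control pair, so no library was counted out as a copy. Exon lengths, coding sequences and coordinates came from GENCODE M21; alpha-tubulin coding ends are not reported here. The test script was checked on simulated counts.

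The 10 genes and all lists were chosen with earlier results of these data known. Named were the 10 genes, a fixed set of tubulin-related and marker genes and, per microtubule list and comparison, up to 2 of the largest called rises and falls of at least 1 mean CPM. Comparisons other than that of the IP groups are given for the 10 genes and for list counts. Alternatives were other scalings (RLE, library totals, oligodendrocyte markers), DESeq2 1.42.0, other filters, each library left out, a replicate block, all 6 libraries in the genotype fit and, for shares, plain counts or coding length.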

Additional observations from a re-analysis of the deposited data

Results flagged for a closer look

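For 8 of the 10 genes the genotype change differed between IP and input by the interaction test, with an adjusted p under 0.05. Over all 15936 genes the same test called 23.6%, with 13.9% lower and 9.67% higher. The log2 difference between the changes was -0.69 for Tubb4a, -0.46 for Tubb2a, -0.42 for Tuba1a, -0.40 for Tubb3, -0.35 for Tubb2b, -0.30 for Tubb4b, -0.29 for Tubb5 and -0.26 for Tuba4a. Each value is the icKO over control change in IP minus that in input, and rests on 1 input library per genotype.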

How the results depend on the processing

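In the IP comparison of genotypes, the 8 falls kept their direction and their call under RLE scaling, library totals, DESeq2, no filter and a replicate block, except as follows. The replicate block called 7277 genes. The correlation over genes of the differences between replicates 1 and 2 of icKO and control IP was -0.00067, which shows no sign of pairing by replicate number. It cannot tell how the libraries were made, and the labels do not say whether replicates were handled in pairs. Leaving out 1 library gave 7 to 8 of the 10 genes called and 5905 to 6242 genes in all, and Tubb3 was lost without control IP replicate 2, where each lone library was assumed to vary like the other group. For IP against input, 9 of the 10 genes were called without any 1 library and 10169 to 11076 genes in all, and for the genotype change in IP against input 8 to 9 and 3515 to 3889. Scaled by library totals, Tuba4a was called lower at -0.17 (adjusted p = 0.0112). With the length trend removed 5 of the 10 genes were called, and Tubb4b had 0.0041. Over all genes, 1428 of the 7119 called in the main fit lost their call.

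Scaled to mature oligodendrocyte markers, the IP genotype differences were 0.32 for Tuba1a, 0.34 for Tuba1b, 0.59 for Tuba4a, 0.40 for Tubb2a, 0.29 for Tubb2b, 0.48 for Tubb3, 0.13 for Tubb4a, 0.52 for Tubb4b, 0.45 for Tubb5 and 0.29 for Tubb6, and 12741 genes were called. IP against input was then -1.91 for Tuba1a, -1.15 for Tubb2b, -1.18 for Tubb4a and -1.84 for Tubb6. The genotype change in IP against that in input was 0.25 for Tuba1a, 0.43 for Tuba1b, 0.41 for Tuba4a, 0.20 for Tubb2a, 0.32 for Tubb2b, 0.27 for Tubb3, 0.37 for Tubb4b, 0.38 for Tubb5 and 0.55 for Tubb6, with 10178 genes called. This scaling divides by genes that themselves fell, which moves every value by the same amount. In that comparison DESeq2 called 1829 genes against 3763 with edgeR (the cause was not tested), Tubb6 ran from -0.33 to 0.11 with 1 library left out, and was above 0 only without control IP replicate 1, and Tuba1b was called under RLE scaling, library totals, no filter, and without control or icKO IP replicate 2. The share of Tubb4a in beta-tubulin of the icKO IPs was 70.7% from plain counts and 70.8% per coding length. Shares of other genes moved more: from plain counts Tuba4a took 8.86% and 8.58% of alpha-tubulin in icKO IPs and 40.8% in the icKO input, where Tuba1a took 45.8%, and Tubb5 took 10.03% and 9.95% of beta-tubulin in icKO IPs. At 17 to 39 counts a library, Tubb6 was too shallow to show a change of the size seen in the other genes.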
